A study of Rattus norvegicus with 16 samples.

Results

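The mRNAs of the cytosolic ribosomal proteins were followed through the left ventricles of 2 rat strains that inhaled air or diesel exhaust (DE). The members are the 50 probe sets whose only gene in the annotation of the Affymetrix Rat 230A array is a cytosolic ribosomal protein (symbols starting with Rpl or Rps and a digit, Rplp0 and Rpsa), of 15923 probe sets on the array. They stand for 44 genes of the 10411 that probe sets of a single gene name. S6 kinase genes, whose symbols start with Rps6k, were left out. Of the 44 genes, 14 (17 probe sets) encode proteins of the small 40S subunit and 30 (33 probe sets) proteins of the large 60S subunit, with 4 of the 44 being paralogs of the core proteins (Rpl3l, Rpl7l1, Rps27l and Rps4y2). Another 34 probe sets match several genes that include a ribosomal protein, and these are not members.

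The study asked whether DE changes the hearts of healthy and hypertensive rats. Arrays were hybridized with left ventricular RNA of male rats, 4 arrays in each of 4 groups. The rats were 12 to 14 weeks of age before the exposure, and their hearts were taken after it. Wistar Kyoto (WKY), the normotensive strain, and spontaneously hypertensive (SH) rats were used. Each strain was kept in air (WKY-air and SH-air) or exposed to DE with particles at 2.0 mg/m3 (WKY-DE and SH-DE). Whole-body exposure ran on 5 days of the week for 4 weeks, with 6 hr/day in the sample labels and a shorter time per day in the study's methods. WKY and SH are separate inbred strains that differ in more than blood pressure, and the ventricle is a mixture of muscle, connective tissue, vessels and blood, so that fewer cells of a type and less RNA per cell cannot be told apart. The study describes the 4 replicates of each group as biological ones, and p-values set the differences against the spread between them.

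The ribosome translates mRNA into protein. Its small subunit decodes the message and its large subunit joins the amino acids, and both are built in the nucleolus from ribosomal RNA and ribosomal proteins. In the heart, growth of the muscle cell goes with more ribosomes and more translation. Most ribosomal protein mRNAs, and those of several other translation factors, start with a C followed by an unbroken run of pyrimidines (the 5′ terminal oligopyrimidine or TOP motif), through which the TOR kinase sets how well they are translated.

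That shared start was looked for in the RefSeq promoter windows of the GRCr8 assembly, which exist for 37 of the 44 member genes. A C at the annotated start followed by at least 4 pyrimidines (C or T, transcript strand only) was found for 10 of 37 member genes (27%), and for 2.63% of all 33469 windows. A run of at least 8 pyrimidines beginning with C and lying within 15 bases of the start on either side, which can overlap the first motif, was found for 18 of 37 (48.6%) and for 8.68% of all windows. The windows of the 7 genes called in a comparison below, of the paralog Rpl3l, and of Rplp0 and Rpl22 as genes with the full motif are shown to let the motif be set beside the expression values. Each is 30 bases, the first 10 of them before the annotated start, and the longest run of pyrimidines that begins with C is in capitals.
Rpl3 (chr7:113507971-113508000, minus strand): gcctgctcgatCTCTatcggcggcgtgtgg
Rps23 (chr2:23814507-23814536, plus strand): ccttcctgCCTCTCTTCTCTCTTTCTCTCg
Rpl18 (chr1:105325260-105325289, plus strand): aCCTggtctagcaggaggcgccatcatggt
Rpsa (chr8:128728869-128728898, plus strand): ccgcgctaCCCTggaacgggtccgtacggc
Rpl23 (chr10:83272165-83272194, minus strand): CTTCCTTTCTgactctttccggacgctcaa
Rps16 (chr1:92770648-92770677, plus strand): aaaatcggtcggggtggccccaagCTTTCC
Rps4y2 (chr4:183000903-183000932, plus strand): cagCTCTCCTCactcgcttgtgctctggga
Rpl3l (chr10:14258436-14258465, plus strand): ctggtgcctggtggggaggtCCCTTCCTaa
Rplp0 (chr12:46718371-46718400, minus strand): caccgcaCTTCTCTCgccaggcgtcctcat
Rpl22 (chr5:168117951-168117980, plus strand): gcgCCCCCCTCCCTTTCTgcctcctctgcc
The runs of Rps23 (21 bases), Rpl23 (10) and Rps4y2 (8) meet the looser motif, while those of Rpl3 (4), Rpl18 (3), Rpsa (4) and Rps16 (6) do not. Lengths are counted within the printed bases, and the runs of Rpl23 and Rps16 reach an end of them. None of the 7 called genes has the first motif, at the annotated start. The windows depend on the annotated start, and a missing match says only that these letters are not there.

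Signal is the brightness of a probe set on a linear scale, scaled by the authors to the same trimmed mean of 500 on every array. Tests were made with limma on log2(signal + 16.1), over 15866 probe sets. A probe set was called when its adjusted p was under 0.05 and its unadjusted p under 0.01. Over the 16 arrays the mean signal of a member ran from 42.5 for the dimmer Rps24 probe set to 17875 for Rpl7a. Of the 50 members, 41 had a mean signal above 1000, and 9 had one of 1000 or less: the second probe sets of Rpl7, Rpl14 and Rps24, both of Rpl7l1, and those of Rpl30, Rpl39, Rps27l and Rps4y2. Signals of different probe sets are not comparable as levels. The bright members varied less between arrays of a group (median SD of 0.15 on the log2 scale) than the dim ones (0.33).

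Of the arrays themselves, 3 facts are given beside the results. The median signal of an array was 209 to 216 in WKY-DE and 173 to 197 in the other groups, and the median log2 difference of all probe sets between WKY-DE and WKY-air was 0.10. Ventricular cardiomyocyte markers were bright on every array, with a summed signal of 200746 to 356938, but the markers of atrial muscle varied widely, with a summed signal of 32050 to 94509 in WKY-air and 11724 to 41970 in WKY-DE, and of 11967 to 23721 (SH-air) and 12788 to 33454 (SH-DE) in the hypertensive strain. The 3′ over 5′ signal ratio of Gapdh, a sign of RNA quality, was 1.30 to 1.35 in WKY-air, 1.12 to 1.33 in WKY-DE, 1.23 to 1.41 for SH-air and 1.17 to 1.31 for SH-DE, while over all arrays that of β-actin was 1.30 to 1.77 and that of hexokinase 1.88 to 4.32. Their part in the results was not tested.

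The share of ribosomal protein signal was highest in WKY-air. The members together held 2.91%, 2.90%, 2.58% and 2.83% of the summed signal on the 4 WKY-air arrays, 2.29%, 2.48%, 2.41% and 2.37% on the WKY-DE arrays, 2.27%, 2.32%, 2.54% and 2.37% on the SH-air arrays and 2.69%, 2.44%, 2.76% and 2.46% on the SH-DE arrays. Every WKY-air array lay above every WKY-DE and SH-air array in this share, and SH-DE overlapped the 3 other groups. As a mean log2 deviation over the 50 members, which gives dim members equal weight, the WKY rats were at 0.13 ± 0.13 in air and −0.08 ± 0.08 under DE (SD, n = 4), and the SH rats at −0.08 ± 0.05 in air and 0.02 ± 0.06 under DE. On this scale WKY-air replicate 1 stood highest (0.31), and WKY-air replicate 3 (0.00) lay below WKY-DE replicate 3 (0.03).

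**Figure D1:**
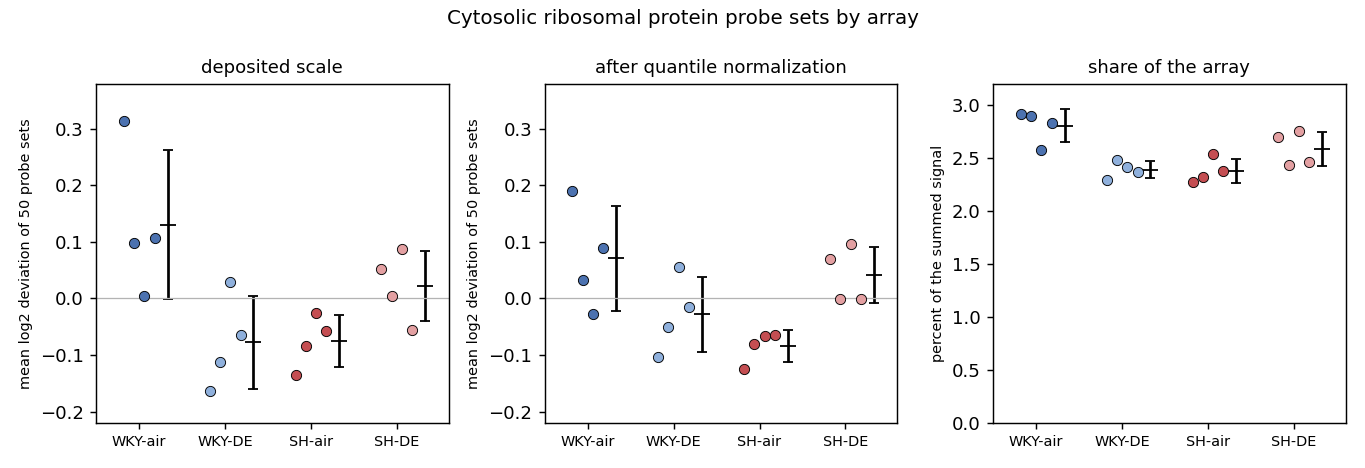
The 50 ribosomal protein probe sets on each of the 16 arrays, by group: mean log2 deviation from the 16-array mean on the deposited scale (left) and after quantile normalization (middle), and percent of the summed signal of the array (right); points are arrays and the bars beside them mean ± SD (n = 4). In the right panel all WKY-air arrays (2.58% to 2.91%) lie above all WKY-DE (2.29% to 2.48%) and SH-air arrays (2.27% to 2.54%), and in the left panel the groups overlap except WKY-air with SH-air. In the middle panel all SH-air arrays (−0.12 to −0.06) lie below all WKY-air (−0.03 to 0.19) and SH-DE arrays (−0.00 to 0.10), and WKY-DE (−0.10 to 0.06) overlaps the other groups.

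Both subunits were highest in WKY-air, with SH-DE next. As log2 deviations (SD, n = 4), the 40S members averaged 0.17 ± 0.15 for WKY-air, −0.10 ± 0.09 for WKY-DE, −0.11 ± 0.07 for SH-air and 0.04 ± 0.09 for SH-DE. The 60S members averaged 0.11 ± 0.13, −0.06 ± 0.08, −0.06 ± 0.04 and 0.01 ± 0.07 in the same groups. Counted by member, 43, 39, 26 and 33 of 50 were above their own 16-array mean on the 4 WKY-air arrays, and 8, 12, 24 and 13 on the WKY-DE arrays. On the SH-air arrays the counts were 9, 16, 24 and 11, and on the SH-DE arrays 34, 24, 29 and 19.

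The strain difference in air was largest for Rpl3, a core protein of the peptidyl transferase region of the 60S subunit. Its signal was 5620, 5319, 5782 and 5649 in WKY-air and 3022, 2803, 3105 and 2803 in SH-air. All 4 SH-air arrays lay well below all WKY-air arrays, and Rpl3 fell by 0.93 on the log2 scale (SE 0.12, limma adjusted p = 0.000833). Rps23, a 40S protein at the decoding center, had a signal of 9667, 8101, 7337 and 8026 in WKY-air and 4803, 5741, 6156 and 5478 in SH-air, groups that do not overlap, and fell by 0.58 (SE 0.13, adjusted p = 0.0286). Rpl18, a 60S protein, had a signal of 10815, 10009, 7218 and 10101 in WKY-air and 6786, 6206, 6935 and 5862 in SH-air. WKY-air replicate 3 was much closer to the SH-air arrays than the other WKY-air arrays were, the groups still did not overlap, and Rpl18 fell by 0.55 (SE 0.13, adjusted p = 0.0312).

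These were the 3 members called lower in SH-air (6% of 50), beside 1.79% of all probe sets called lower and 3.99% of the 2307 with a mean signal above 1000. By limma 0 were called higher, with 1.36% of all probe sets called higher. At an unadjusted p under 0.05, 17 members were lower and 1 was higher, where 8.52% and 9.03% of all probe sets and 12.3% and 12.5% of the bright ones were. The log2 difference was negative for 42 of 50 members, and for 46.8% of all probe sets and 49.7% of the bright ones, and its median was −0.22, against 0.02 over all probe sets. Groups did not overlap, with SH-air lower, for 14 members, and 5.66% of all probe sets and 9.58% of the bright ones showed the same. After quantile normalization the median of the members was −0.15, and 2 members were called, Rpl18 then having an adjusted p of 0.0566. Rpl3 stayed called when any single array was left out. Rps23 and Rpl18 each lost the call (adjusted p 0.0548 to 0.0933) without WKY-air replicate 1, 2 or 4 or SH-air replicate 1, 2 or 4.

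Members with other roles did not pass the test between the strains in air. Rps6, the 40S protein that S6 kinases phosphorylate, stood at a signal of 14978 ± 2472 for WKY-air and 11296 ± 548 for SH-air (SD, n = 4), groups that do not overlap (log2 difference −0.39, adjusted p = 0.0897). Rpl5 and Rpl11, which carry 5S ribosomal RNA and bind the p53 regulator Mdm2, had log2 differences of −0.26 (adjusted p = 0.271) and −0.27 (adjusted p = 0.298). Rplp0, the base of the 60S stalk that recruits translation factors, differed by −0.09 (adjusted p = 0.691). Rpl22, which has a role in lymphocyte development, differed by −0.30 (adjusted p = 0.316) and Rpl13a, part of a complex that silences inflammatory mRNAs, by −0.07 (adjusted p = 0.775). Of the brightest members, Rps29 (−0.73, adjusted p = 0.297), Rpl7a (−0.22, adjusted p = 0.328), Rps3a (−0.07, adjusted p = 0.836) and Rpl26 (−0.27, adjusted p = 0.229) did not pass either. In the upward direction the members of lowest p were Rpl30 (0.90, adjusted p = 0.271), Rpl24 (0.16, adjusted p = 0.441) and the dim probe set of Rpl7 (0.73, adjusted p = 0.498), none of which passed the test, and the Rpl30 and Rpl7 probe sets are both dim.

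**Figure D2:**
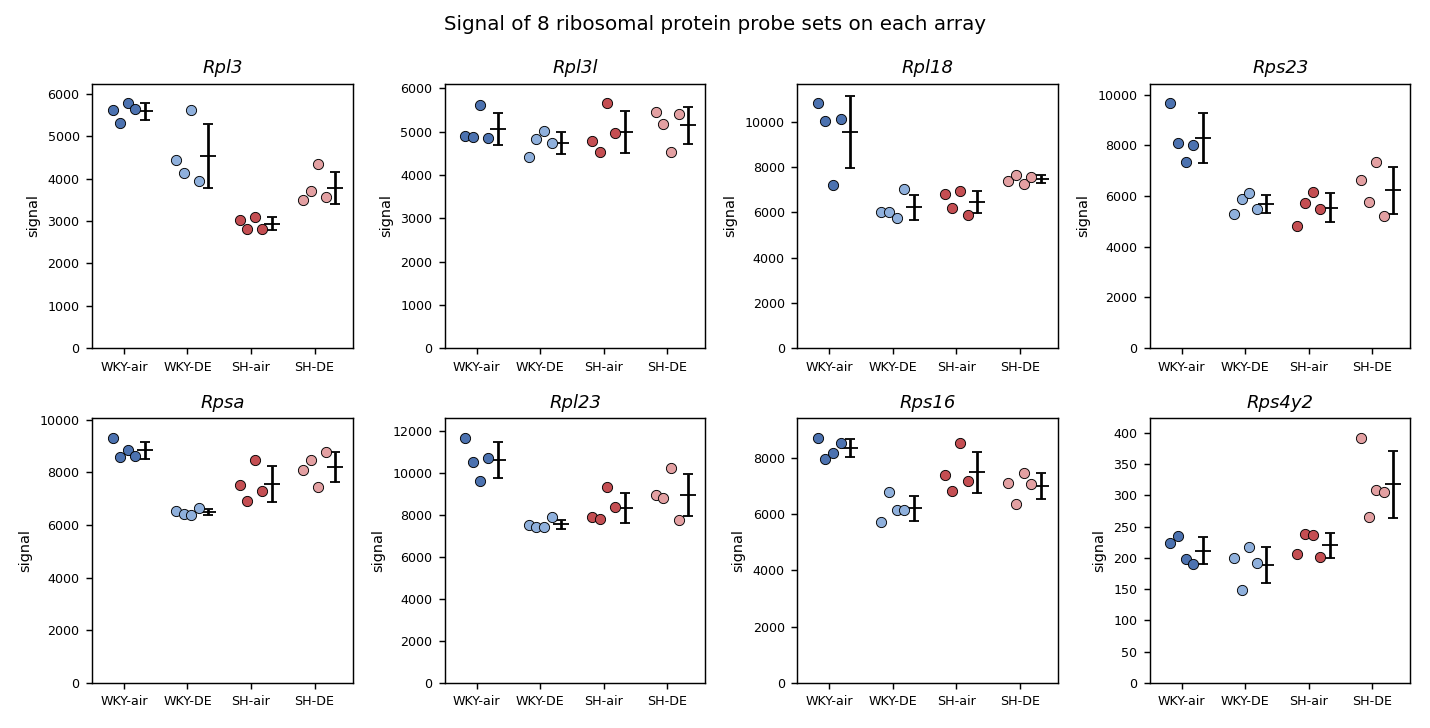
Signal (linear scale) on each array for 8 ribosomal protein probe sets: the 7 called in a comparison and the paralog Rpl3l; points are arrays by group and the bars beside them mean ± SD (n = 4). Rpl3 drops from 5319 to 5782 in WKY-air to 2803 to 3105 in SH-air while Rpl3l overlaps in all 4 groups, and Rps4y2 is highest in SH-DE (265 to 392).

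The signal of Rpl3l overlapped among all groups. It is the paralog of Rpl3 made in heart and skeletal muscle, where it takes the place of Rpl3 in part of the ribosomes. The WKY-air arrays gave a signal of 4908, 4889, 5625 and 4863, and the WKY-DE arrays 4408, 4834, 5006 and 4738. The SH-air arrays gave 4788, 4532, 5660 and 4982, and the SH-DE arrays 5459, 5190, 4543 and 5405. The log2 difference was −0.03 (SE 0.11, adjusted p = 0.931) between the strains in air and −0.09 (SE 0.11, adjusted p = 0.657) for DE in WKY rats. Rpl3 and Rpl3l were not tested against each other. The other paralogs were dim. Rps27l, a p53 target related to S27, was at 68.1 ± 15.9 for WKY-air and 86.5 ± 9.12 for SH-air (SD, n = 4; log2 difference 0.30, adjusted p = 0.528), and Rps4y2 at 212 ± 21.6 and 220 ± 19.8 (0.05, adjusted p = 0.88). The 2 probe sets of Rpl7l1, related to L7, gave −0.39 (adjusted p = 0.0974) and 0.16 (adjusted p = 0.586).

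With DE, 4 members fell in WKY rats. Rpl18 had a signal of 6031, 6025, 5759 and 7042 in WKY-DE, every one below the WKY-air values given above, and fell by 0.60 (SE 0.13, 1.52-fold, adjusted p = 0.0353). Rpsa, the 40S protein also known as the laminin receptor, had a signal of 9305, 8589, 8835 and 8611 in WKY-air and 6529, 6421, 6372 and 6654 in WKY-DE on its brightest probe set. The groups are far apart against their spread, and the signal fell by 0.44 (SE 0.10, adjusted p = 0.0385). Rpl23, a 60S protein that like Rpl5 and Rpl11 can bind Mdm2, had 11673, 10530, 9607 and 10719 in WKY-air and 7514, 7427, 7440 and 7887 in WKY-DE, and fell by 0.49 (SE 0.11, adjusted p = 0.0399). Rps16, a 40S protein near the decoding site, had 8701, 7966, 8174 and 8513 in WKY-air and 5710, 6795, 6151 and 6133 in WKY-DE, and fell by 0.43 (SE 0.10, adjusted p = 0.0498). For all 4, no WKY-DE array reached a WKY-air array.

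The 4 called lower are 8% of the members, beside 0.511% of all probe sets and 1.56% of those with a mean signal above 1000. By limma 0 members were called higher, against 1.37% of all probe sets. At an unadjusted p under 0.05, 22 members were lower and 3 higher, beside 6.42% and 14% of all probe sets and 17.3% and 7.02% of the bright ones. The log2 difference was negative for 40 of 50 members and for 38.1% of all probe sets, or 60.6% of the bright ones. Its median was −0.26 over the members, 0.10 over all probe sets and −0.07 over the bright ones. WKY-DE lay below WKY-air without overlap for 13 members, which 4.27% of all probe sets did, and 13.4% of the bright ones. The size depends on how arrays are scaled. After quantile normalization the median was −0.11 and no member was called, with calls over all probe sets going from 217 higher and 81 lower to 44 higher and 47 lower, and with each array centered on its median it was −0.42 and 9 members were called lower. Without WKY-air replicate 1, 2 or 4, or WKY-DE replicate 1, 2 or 3, none of the 4 was called, and each of the arrays of the SH groups moved the count to between 1 and 4.

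**Figure D3:**
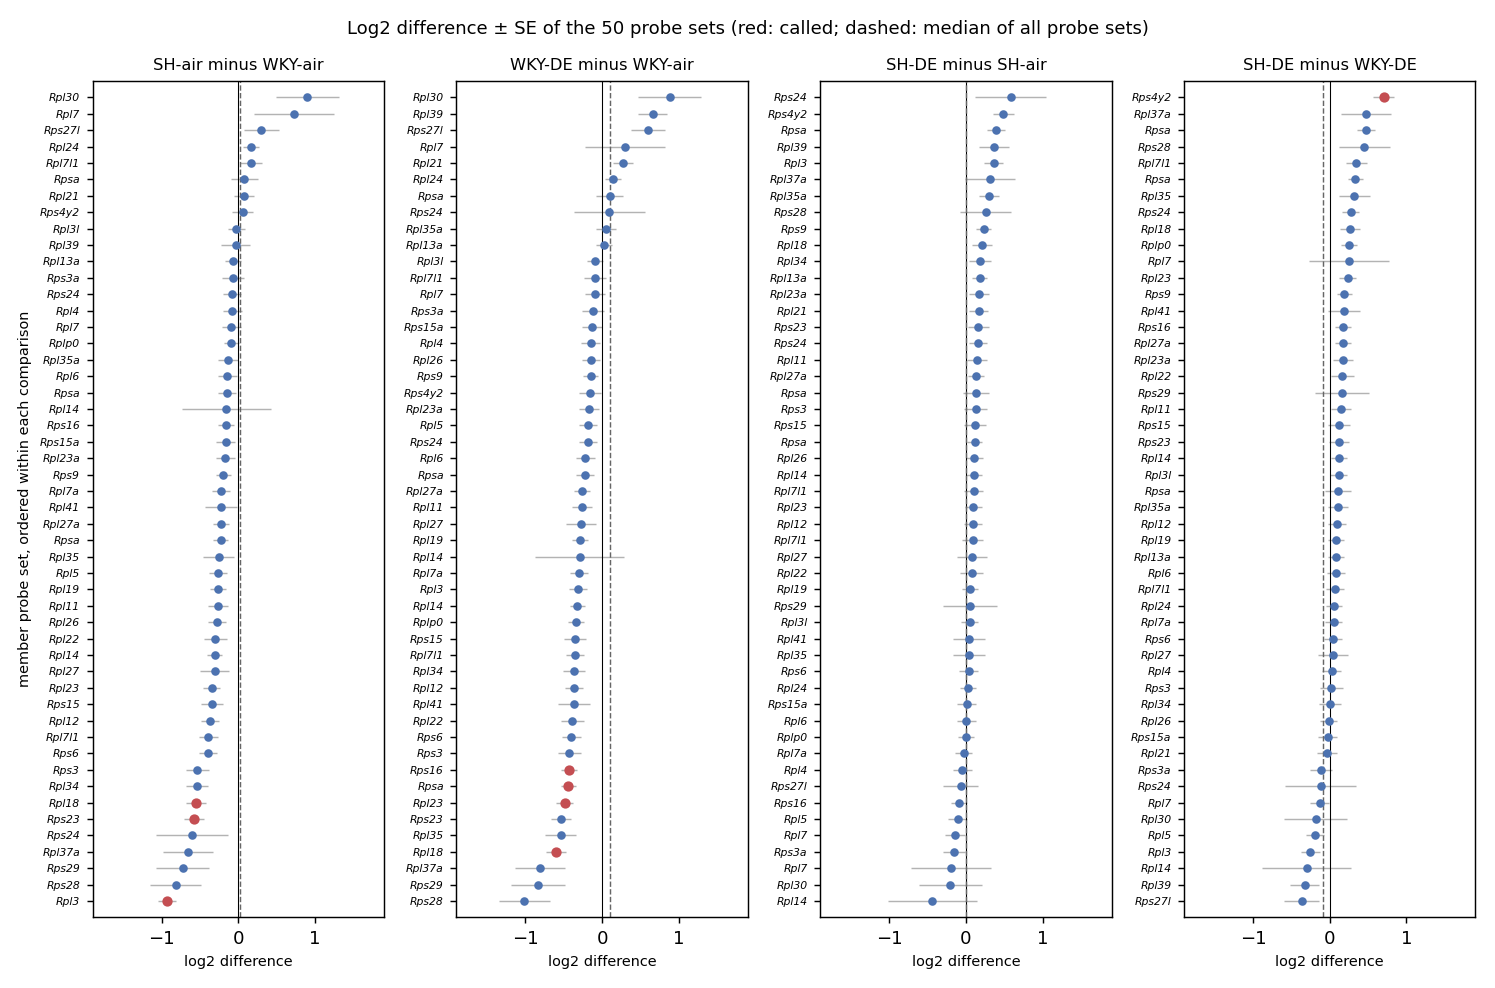
Log2 difference ± SE of the 50 members in the 4 comparisons between groups (x axis), with members ordered by their value in each comparison (y axis; a gene with several probe sets is listed once for each); red points were called and the dashed line is the median of all 15866 probe sets. Most points lie left of 0 for SH-air (42 of 50) and WKY-DE (40 of 50) against WKY-air and right of 0 for SH-DE against SH-air (39 of 50) and against WKY-DE (38 of 50).

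Members close to the threshold in WKY rats were Rps23 (log2 difference −0.53, adjusted p = 0.0522), Rps6 (−0.40, adjusted p = 0.087) and Rplp0 (−0.34, adjusted p = 0.0882), and none of them passed the test. Rplp0 went from 9886 ± 969 for WKY-air to 7786 ± 492 for WKY-DE (SD, n = 4), without overlap. Rpl3 had 4440, 4128, 5616 and 3958 in WKY-DE, where replicate 3 lay within the range of WKY-air, and did not pass (−0.31, adjusted p = 0.161). Rpl5 (−0.18, adjusted p = 0.409), Rpl11 (−0.27, adjusted p = 0.258), Rpl22 (−0.39, adjusted p = 0.162) and Rpl13a (0.02, adjusted p = 0.918) did not pass either. The bright Rpl7a had a difference of −0.30 (adjusted p = 0.154). In the other direction, Rpl39, a small protein at the exit tunnel, had a signal of 323, 238, 187 and 224 in WKY-air and 389, 375, 356 and 426 in WKY-DE. It was the 1 member with every WKY-DE array above every WKY-air array, as 8.39% of all probe sets were, and did not pass the test (0.66, adjusted p = 0.0851). Rps27l (0.60, adjusted p = 0.157) and Rpl30 (0.88, adjusted p = 0.243) were the other members of lowest p with a positive difference, and both are dim, as is Rpl39.

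The strain difference in air and the DE difference in WKY rats share the WKY-air arrays, so their values stand side by side and were not set against each other. Rpl18 was called in both (−0.55 and −0.60). Rpl3 had −0.93 and −0.31, Rps23 −0.58 and −0.53, Rpl23 −0.35 and −0.49, Rps16 −0.16 and −0.43, and the brightest Rpsa probe set −0.23 and −0.44. When WKY-air replicates 1 and 4, those with the highest mean of the members, were both left out, the median over the members was −0.18 for strain with 1 member called and −0.22 for DE in WKY rats with 0 called, where all probe sets gave 65 higher and 50 lower calls for strain and 7 higher and 4 lower for DE.

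In SH rats limma called 0 members with DE, and 0 probe sets of the whole array (0%). At an unadjusted p under 0.05, 5 members were higher and 0 lower, beside 3.23% and 2.92% of all probe sets and 2.38% and 3.9% of the bright ones. The median over the members was 0.10, against −0.00 for all probe sets, and 39 of 50 were positive, beside 49.8% of all probe sets and 46.2% of the bright ones. Rps4y2 (0.49, adjusted p = 0.628), Rpsa on its s_at probe set (0.39, adjusted p = 0.628) and Rpl3 (0.36, adjusted p = 0.717) had the lowest p. Rpl3 had a signal of 3498, 3715, 4343 and 3572 in SH-DE, each above the SH-air values and below those of WKY-air. Downward, Rps3a (−0.16, adjusted p = 0.905), the bright Rpl7 probe set (−0.14, adjusted p = 0.907) and Rpl5 (−0.11, adjusted p = 0.925) had the lowest p, none near the threshold. After quantile normalization the median was 0.12 over the members and −0.00 over all probe sets, and 0 members were called. The mean log2 deviation of the members was then −0.12 to −0.06 on the SH-air and −0.00 to 0.10 on the SH-DE arrays, without overlap. On the deposited scale these groups overlapped (−0.13 to −0.02 and −0.06 to 0.09).

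Between the strains under DE, 1 member was called, with SH-DE higher. Rps4y2, a relative of the 40S protein S4 that RefSeq places on chromosome 4, had a signal of 200, 148, 217 and 191 in WKY-DE and 392, 265, 309 and 305 in SH-DE, against 190 to 235 in WKY-air and 201 to 239 in SH-air. All SH-DE arrays were above the 12 others, and Rps4y2 rose by 0.70 (SE 0.14, 1.63-fold, adjusted p = 0.0317) against WKY-DE, a call reached by 0.46% of all probe sets in this direction, and by 0.353% (0 members) in the other. At an unadjusted p under 0.05, 6 members were higher and 0 lower in SH-DE, beside 4.53% and 8.74% of all probe sets. Among bright probe sets these shares ran the other way, 11.3% and 4.68%, and 4 of the 41 bright members were higher. It was lost without SH-DE replicate 1 or 4 or WKY-DE replicate 1, 2 or 4 (adjusted p 0.0654 to 0.0984). This probe set is dim, and whether its probes match other S4 copies was not tested. The s_at probe set of Rpsa (0.47, adjusted p = 0.0786) and its brightest one (0.33, adjusted p = 0.148) came next, both with SH-DE above WKY-DE on every array and neither called. Rpl3 (−0.25, adjusted p = 0.386), Rpl39 (−0.33, adjusted p = 0.487) and Rps27l (−0.37, adjusted p = 0.515) were the members of lowest p with SH-DE lower. Over the 50 members the median difference was 0.11, against −0.09 for all probe sets and 0.05 for the bright ones, and 38 of 50 were positive, beside 37.8% of all and 60.4% of the bright ones. After quantile normalization the median of the members was 0.05.

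The test of whether DE acted differently in the 2 strains, the interaction, called 0 of the 50 members by limma, and 1 probe set in all (0.0063%). At an unadjusted p under 0.05, 23 members had a more positive DE difference in SH than in WKY rats and 0 a more negative one, and for all probe sets these shares were 4.27% and 8.18%. Among bright probe sets they were 9.45% and 4.03%, and 21 of the 41 bright members were in the first group. The median interaction was 0.35 over the members, −0.09 over all probe sets and 0.04 over the bright ones. The members and all probe sets had medians of 0.22 and −0.01 after quantile normalization. Rpl18 had the lowest p (0.82, SE 0.18, adjusted p = 0.143), followed by the brightest Rpsa probe set (0.56, adjusted p = 0.185) and Rpl3 (0.68, adjusted p = 0.191). For Rpl18, DE went with −0.60 in WKY and 0.21 in SH rats. Rps27l (−0.67, adjusted p = 0.412), Rpl30 (−1.08, adjusted p = 0.47) and Rpl39 (−0.29, adjusted p = 0.694) had the lowest p with a negative interaction.

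A few small proteins varied more within groups than the other bright members. Rps29, Rps28, Rpl37a, Rpl41 and Rpl35 had the largest within-group SD of the 41 bright members, 0.53, 0.50, 0.50, 0.30 and 0.29 on the log2 scale, against a median of 0.15. They were picked for that spread after their values were seen, so what follows is a description with no test. Rps29 had a signal of 27556, 25764, 11935 and 22346 in WKY-air and 6189, 11372, 19820 and 17974 in SH-air. Rps28 had 3714, 3860, 1978 and 4164 in WKY-air and 3147, 1504, 3911 and 1326 in SH-DE. WKY-air replicate 3 was the lowest of its group for all 5, and SH-DE replicates 1 and 3 were above replicates 2 and 4 for each of them. Pearson's r between the deviations of 2 of the 5 from their group means had a median of 0.74 over the 10 pairs (0.55 to 0.89), beside 0.16 over the 630 pairs of the other 36 bright members, across 16 arrays that share each library. None of the 5 was called in any comparison, with log2 differences of −0.82 for Rps28 (adjusted p = 0.208) between the strains in air and −1.01 (adjusted p = 0.109) for DE in WKY rats. Without the 5, the 36 other bright members had medians of −0.23 and −0.26 in these comparisons.

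**Figure D4:**
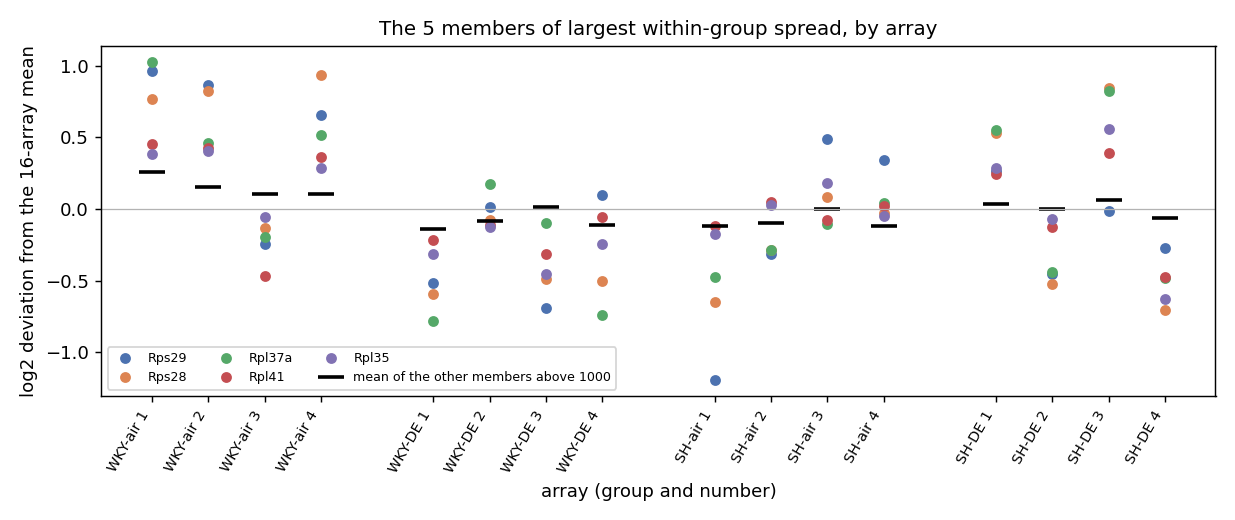
Log2 deviation from the 16-array mean (y axis) of the 5 ribosomal protein probe sets with the largest spread within groups, on each array (x axis); the black bars are the mean of the 36 other members with a mean signal above 1000. The 5 lie above 0 together on WKY-air replicates 1, 2 and 4 and below 0 on WKY-air replicate 3, where the mean of the others is 0.10.

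Probe sets of the same gene did not all give the same value. The 3 probe sets of Rpsa gave −0.44 (the brightest), −0.23 (with the ending s_at) and 0.10 (with the ending x_at) for DE in WKY rats, of which the first passed the test. The s_at and x_at endings mark probe sets whose probes can match other transcripts, and Rpsa has many pseudogene copies, so these values are uncertain. The bright probe set of Rpl14 gave −0.31 between the strains in air (adjusted p = 0.118), and its dim one −0.16 with an SE of 0.58. For Rps24 the bright probe set gave −0.08 and the dim one −0.61 (SE 0.47). The 34 probe sets that match several genes including a ribosomal protein had a median of −0.29 between the strains in air (0 called, 32 of 34 negative) and −0.32 for DE in WKY rats (2 called lower, 29 negative).

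Other parts of the translation machinery were read from gene lists. Among elongation factors (12 probe sets of 8 genes), which bring tRNA to the ribosome and move it along, 3 were called lower in SH-air than in WKY-air and 0 higher, with a median of −0.17. These were both probe sets of Eef1a1, which delivers aminoacyl-tRNA and is itself a TOP mRNA (−1.31, adjusted p = 0.0015, and −0.76, adjusted p = 0.0431), and Eef1d, part of its exchange factor (−0.42, adjusted p = 0.0468). Of 14 probe sets of other TOP mRNAs, Eif3k, a subunit of an initiation factor (−0.56, adjusted p = 0.0295), and Vim, the filament protein of connective tissue cells (−0.76, adjusted p = 0.03), were called lower, with a median of −0.04. For DE in WKY rats 0 probe sets of either list were called. The medians there were −0.22 for the elongation factors and −0.01 for the other TOP mRNAs. None of the 27 initiation factor probe sets was called by limma in either comparison with WKY-air, where 4 higher and 0 lower (strain) and 6 higher and 3 lower (DE) had an unadjusted p under 0.05.

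Few genes of ribosome assembly and its control were called. Of 59 ribosome biogenesis probe sets, Nob1, an endonuclease that matures 18S ribosomal RNA, was called lower in SH-air (−0.66, adjusted p = 0.0284) and Ddx47, an RNA helicase, lower in WKY-DE (−0.56, adjusted p = 0.0399), and the medians were −0.05 and 0.03. Of 27 TOR pathway probe sets, Sesn1, a stress-induced inhibitor of TOR complex 1, was called higher in SH-air (0.93, adjusted p = 0.0103). Akt1s1, another inhibitor of that complex, was at 149 ± 10.98 for WKY-air and 40.7 ± 14.4 for WKY-DE (SD, n = 4) and was called lower (−1.57, adjusted p = 0.0369). The Akt1s1 probe set is dim, with a WKY-DE mean below the 25th percentile of all values (62.5), so the size of its log2 difference depends on the offset. None of the 8 S6 kinase probe sets was called in either comparison, with 1 lower (strain) and 1 higher and 1 lower (DE) at an unadjusted p under 0.05.

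Against WKY-air, the proteins of the mitochondrial ribosome, which translates messages of the mitochondrial genome, had other medians than those of the cytosol. Their 82 probe sets (71 genes) had a median of 0.13 between the strains in air, with Mrpl50 called higher and Mrpl4 lower, and of −0.05 for DE in WKY rats, with Mrps12 and Mrpl27 called lower. Under DE the median of SH against WKY rats was 0.18 for them, with Mrps12 and Mrps18a called higher, beside 0.11 for the cytosolic members. Proteasome subunits (35 probe sets), another large complex present in all cells, had medians of 0.03 and −0.07 in the 2 comparisons with WKY-air, with Psmb10 called lower in SH-air. Between the strains under DE their median was 0.13, with 0 called. Rack1, a protein bound to the 40S subunit, had −0.07 and −0.08 in the 2 comparisons with WKY-air.

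Fibroblast markers were lower in SH-air, as were some atrial ones. All 10 fibroblast marker probe sets had a negative log2 difference between SH-air and WKY-air (8 called lower), with a summed signal of 27350 to 36942 on the WKY-air and 17752 to 21901 on the SH-air arrays, and of 21473 to 28101 (WKY-DE) and 20937 to 24393 (SH-DE) under DE. For DE in WKY rats all 10 were negative and 1 was called, and between the strains under DE 8 of 10 were negative (median −0.09, 0 called). In the markers of endothelium, smooth muscle, macrophages, lymphocytes, erythroid cells and adipocytes (4 to 9 probe sets each), limma called 1 probe set against WKY-air, the lymphocyte marker Cd3g, higher in WKY-DE (1.31, adjusted p = 0.0346). Their medians ran from −0.23 (endothelium) to 0.20 (lymphocytes) for strain in air and from −0.23 (smooth muscle) to 0.46 (lymphocytes) for DE in WKY rats. The lymphocyte probe sets were dim, with a summed signal of 438 to 570 on the WKY-air and 628 to 726 on the WKY-DE arrays. After quantile normalization 0 of them were called for DE in WKY rats, and their median was 0.23. Of the ventricular markers, Irx4, a transcription factor of the ventricle, was called lower in WKY-DE (−1.44, adjusted p = 0.0291). Of the 6 atrial probe sets 3 were called lower in SH-air, Myl7 (−7.08), Myl4 (−4.80) and Sln (−4.97), and 0 in WKY-DE, where 4 were lower at an unadjusted p under 0.05. With the array's mean of the atrial markers added to the model, the median of the members was −0.10 between the strains in air and −0.20 for DE in WKY rats. By limma 0 members were called in either comparison, and over all probe sets the calls went from 499 to 11 and from 298 to 7. The mean log2 deviation of the atrial markers was 0.95 to 2.57 on the WKY-air and −1.83 to −0.91 on the SH-air arrays, without overlap. Between the strains in air this covariate can therefore hardly be told apart from strain, and the part of the atrial markers was not tested. The part of connective tissue in the ribosomal protein differences was not tested.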

How the data were processed

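The data are 16 Affymetrix Rat 230A arrays of left ventricular RNA, 4 per group. Per the labels the authors computed the deposited intensity values with MAS5 (version not given in the sources used here). They are linear signals with a mean of 500 per array after trimming 2% at each end. The RMA values described in the methods were not used here.

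After removal of 57 control probe sets, limma 3.58.1 (R 4.3.3) fitted log2(signal + 16.1), the offset being the 10th percentile of all values, with 1 mean per group (degrees of freedom: 12 residual, 2.68 prior). P-values were adjusted by Benjamini-Hochberg across 15866 probe sets, and a call required both 0.05 (adjusted) and 0.01 (unadjusted). The number of arrays limits the precision. Median SE was 0.21. The code was tested on simulated data.

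Genes came from the platform annotation (12783 probe sets with 1 gene, 312 with several, 2771 unnamed here), and 48 of the 50 members have an Entrez identifier in RefSeq. Members and gene lists were chosen with earlier results of these data known. Named members are those called, the 3 of lowest p per direction and comparison, the 5 brightest and 5 dimmest, and members fixed by role. A gene of another list is named where it was called or had 1 of the list's 2 lowest p. Marker lists for endothelium, smooth muscle, macrophages, lymphocytes, erythroid cells and adipocytes were also read. The fit was repeated with quantile normalization, with offsets of 1 and 62.5 (25th percentile), with calls at 0.01, without the dimmest 40% of probe sets, with an intensity trend, array weights, with only the compared groups, with a replicate block, with 1 probe set per gene, with only plain _at probe sets and without each array in turn. Centering arrays on their median, an atrial covariate and leaving out pairs of arrays were added after seeing the data. Protein sequences were not analyzed here.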

Additional observations from a re-analysis of the deposited data

Results flagged for a closer look

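Within groups of 4 arrays, 13 values stood apart by Dixon's test at the 95% level among 208 groups, those of the 50 members and of their mean and summed share, where chance flags about 1 in 20 (10.4 of 208). On WKY-air replicate 3, 4 members were lowest: Rpl27a (9184, the others 11047 to 11229), Rps15 (6002, the others 7824 to 8029), Rpl41 (3997, the others 7090 to 7579) and Rpl35a (3825, the others 4865 to 5064). Rpl3l was highest there, with 5625 against 4863 to 4908. On WKY-DE replicate 3, 4 members were highest: Rpl12 (8075, the others 5937 to 6282), Rps3 (7069, the others 4927 to 5282), Rps6 (12281, the others 10757 to 11015) and the dim Rpl7 probe set (229, the others 57.3 to 77.4). Without WKY-air replicate 3 the members called were 4 for strain in air and 2 for DE in WKY rats, with medians of −0.23 and −0.30, and without WKY-DE replicate 3 they were 4 and 0, with medians of −0.22 and −0.28. The other values were Rps15a on WKY-DE replicate 2 (6738, the others 5732 to 5895), Rpl13a on SH-air replicate 1 (3446, the others 3486 to 3490), the dim Rpl14 probe set on SH-DE replicate 2 (71.7, the others 13.5 to 19.8) and the dim Rps24 probe set on SH-air replicate 3 (4.97, the others 29.2 to 30.9). No difference between the strains in the DE effect passed the interaction test for a member.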

How the results depend on the processing

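For SH-air against WKY-air the 3 calls became 9 with an intensity trend, 7 without the dimmest 40%, 5 with the offset at the 25th percentile, 1 each with only the compared groups, with the replicate block, without WKY-air replicates 1 and 4 together and at an adjusted p under 0.01, and 0 with the atrial covariate, where the median of the members moved from −0.22 to −0.10. For DE in WKY rats the 4 calls became 10 with the trend, 9 with arrays centered on their median, 8 without the dimmest 40%, and 0 each with quantile normalization, the replicate block, only the compared groups, the atrial covariate, the stricter threshold, and when either WKY-DE and SH-DE replicate 3 or WKY-air replicates 1 and 4 were left out. The median of −0.26 was −0.42 after centering and −0.11 after quantile normalization. For SH-DE against WKY-DE the 1 call became 2 with array weights, centering, the trend, the larger offset and without the dimmest 40%, and 0 with the atrial covariate, only the compared groups, the replicate block, the stricter threshold and without WKY-air replicates 1 and 4. Its median of 0.11 was 0.25 after centering and 0.05 after quantile normalization. The interaction median of 0.35 was 0.25 with the atrial covariate, 0.49 after centering and 0.22 after quantile normalization. The causes were not tested.

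Leaving out single arrays gave 1 to 4 calls for strain in air, 0 to 4 for DE in WKY rats and 0 to 1 for strain under DE, and 0 to 0 for DE in SH rats and the interaction. The medians ran from −0.25 to −0.19 (strain in air), −0.30 to −0.21 (DE in WKY rats), 0.07 to 0.14 (both strain under DE and DE in SH rats) and 0.31 to 0.40 (interaction). None of the called members changed direction in the 29 alternatives. Rpl3 in air was called in 28 of 29 (with the atrial covariate −0.64, adjusted p = 0.451 by limma), Rps4y2 in 19, Rps23 in 18, Rpl18 in 17 (strain) and 16 (DE), Rpsa and Rpl23 in 12 each and Rps16 in 6. Over all comparisons the named members had 142 differences without a call, not all of them printed here. Of these 142, 8 were called under some alternative and 47 changed sign under some alternative. Arrays of different groups with the same replicate number did not visibly deviate together (r −0.096 to 0.053 over 24 pairs). A small effect shared by such arrays was not tested for. With the number as a block, all probe sets gave 130 higher and 185 lower calls for strain in air and 82 and 31 for DE in WKY rats. Dim members (9 of 50) had the larger spread, and differences among them were measured less well.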
